A study of Mus musculus with 115 samples.

Results

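Among the wild type oocyte libraries of a mouse ovary series, 5 libraries stood apart from the other 7 in their RNA content, and the transcripts that separate them are described here. The 5 libraries, numbered 39, 45, 46, 56 and 57 in the labels, are called mitochondria-rich because most of them have a high share of mitochondrially encoded RNA. The other 7, numbered 3, 7, 8, 13, 21, 58 and 59, are called mitochondria-poor. The split was made from these same counts, so the difference in each gene between the sets is a description and carries no p-value. They are 12 of the 43 wild type libraries of the series, and of 3702 cells kept in the 51 libraries read here they held 803 oocytes with at least 1000 genes and 3000 unique molecular identifiers (UMIs) each, 342 in the mitochondria-rich and 461 in the mitochondria-poor libraries. A UMI is a tag that marks 1 captured RNA molecule, so a UMI count is a count of molecules.

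The series profiled single oocytes and somatic cells from the ovaries of 3 kinds of mice: wild type mice and the obese leptin pathway mutants db/db and ob/ob. All 12 libraries carry the same labels, wild type oocytes of mice of strain C57BL/6-129Sv. Ovaries were cut up, treated with collagenase IV, and single cells were picked by hand with needles, and the polyadenylated RNA of each cell was barcoded, pooled and sequenced on a HiSeq X-Ten. The labels give neither the age, the animal nor the growth stage of an oocyte, so the libraries may share animals, and spread between libraries may be technical.

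An oocyte builds a large store of messenger RNA while it grows and then stops transcribing. When meiosis resumes, the stored messages lose their poly(A) tails and decay at different rates, while others are kept masked until proteins bound to short U-rich motifs near their 3′ end lengthen their tails again. Because the libraries were made from polyadenylated RNA, a message is read only while it carries a tail. This is background and was not tested here as a cause of the values below.

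The oocyte growth factors Gdf9 and Bmp15 were at high levels in both sets. Of 18 oocyte identity genes, given further on, 10 were lower in the mitochondria-rich libraries, beside 31.9% of all genes. Levels are counts per 1000000 UMIs of the library (CPM) after scaling by edgeR's trimmed mean of M values (TMM). Gdf9, an oocyte growth factor needed for follicle growth, lay between 3152 and 4278 CPM in the 5 mitochondria-rich libraries and between 2007 and 2897 CPM in the 7 mitochondria-poor libraries. Bmp15, its close relative, lay between 924 and 2372 CPM and between 723 and 1797 CPM, and the ranges overlapped. The log2 difference, mitochondria-rich minus mitochondria-poor, was 0.61 ± 0.11 (SE, 5 and 7 libraries) for Gdf9 and 0.67 ± 0.32 for Bmp15. These differences moved with the scaling, to -0.07 for Gdf9 and -0.01 for Bmp15 with the total of nuclear-encoded UMIs and to -0.99 and -0.93 with ERCC RNA, a synthetic spike added to each cell's lysate. With the mean CPM of single oocytes they were 0.26 and -0.12, so neither gene has a direction that holds under every scaling. Both genes were picked after their values were seen. Log2 differences here and below are differences of mean log2(CPM + 1), which understates the difference of scarce transcripts.

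Total UMIs lay between 2070988 and 17339531 per mitochondria-rich library and between 10814344 and 17827995 per mitochondria-poor library, and library 46 was the smallest with 16 oocytes. Thinned to 3000 UMIs, the median oocyte showed 977 to 1163 genes in the mitochondria-rich and 1387 to 1512 genes in the mitochondria-poor libraries. Without thinning, the medians were 3435 to 5430 and 5040 to 8333 genes per oocyte and overlapped. The 100 most abundant genes held 42.4% to 49.3% of the UMIs in the first set and 24.9% to 29.7% in the second. Across 12435 genes, Pearson's r of log2 levels between libraries was 0.932 to 0.970 among the mitochondria-rich, 0.925 to 0.990 among the mitochondria-poor and 0.677 to 0.794 between the sets. These correlations are over genes, which are not independent, and describe how far the sets lie apart. Across the libraries 96 well barcodes were used, each in more than 1 library, and no 2 oocytes had identical counts. Library 46, with its 16 oocytes, did not use all of these barcodes.

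The mitochondrially encoded transcripts made up 9.95%, 14.5%, 4.83%, 15.9% and 12.1% of the UMIs in libraries 39, 45, 46, 56 and 57. In libraries 3, 7, 8, 13, 21, 58 and 59 they made up 2.13%, 3.999%, 2.05%, 1.81%, 1.25%, 3.39% and 3.86%. Library 46 was the mitochondria-rich library nearest to the other set and library 7 the mitochondria-poor library nearest to it. The same order of the sets was seen in the median oocyte, at 5.52% to 21.2% against 2.46% to 5.21%, with libraries 46 and 58 on either side of a narrow gap. Single oocytes overlapped widely, between 2.40% and 58.6% in the first set and between 0.474% and 57.1% in the second.

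**Figure D1:**
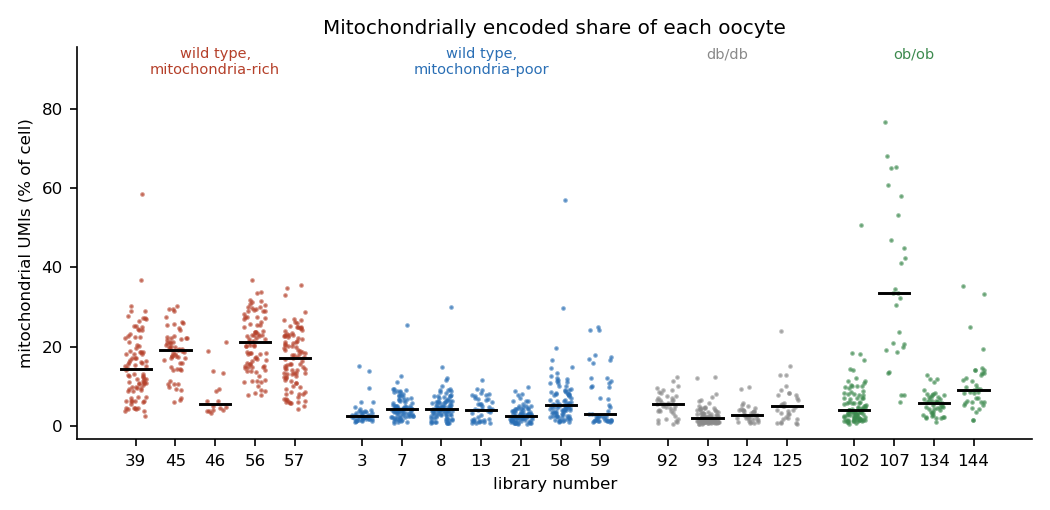
Mitochondrially encoded share of each oocyte, in percent of its UMIs, by library number; points are oocytes, bars are library medians, and libraries are grouped by set and by genotype. The medians of the 5 mitochondria-rich libraries lie between 5.52% and 21.2%, those of the 7 mitochondria-poor libraries between 2.46% and 5.21%, and that of ob/ob library b107, drawn without its b, at 33.4%.

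Of the 15 mitochondrially encoded messenger and ribosomal RNAs, 10 passed the filter on low counts and 9 of these were higher in the mitochondria-rich libraries without overlap, with a median log2 difference of 3.04. mt-Nd2, a subunit of respiratory complex I, was at 27429, 35581, 8144, 52097 and 27365 CPM in libraries 39, 45, 46, 56 and 57, and between 1398 and 6973 CPM in the 7 mitochondria-poor libraries. mt-Co1, a catalytic subunit of complex IV, lay between 1470 and 4107 CPM against 194 to 480 CPM. mt-Cytb, of complex III, lay between 9111 and 15381 CPM against 1249 to 2377 CPM. The sets were therefore separate for transcripts of these complexes, with library 46 the lowest of its set each time. The remaining one, the small ribosomal RNA mt-Rnr1, overlapped: library 46 had 7245 CPM and library 7 had 9146 CPM. The 5 others, mt-Nd4l, mt-Co2, mt-Co3, mt-Atp6 and mt-Atp8, held too few UMIs to be tested.

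Over all genes, 12435 had enough counts to be compared. A gene is called higher or lower here when no library of one set reached the range of the other and the log2 difference was at least 1. On this rule 2058 genes, or 16.6%, were higher in the mitochondria-rich libraries and 3969 genes, or 31.9%, were lower, so that 65.9% of the called genes were lower. These shares follow from a split made on the same counts, and nothing is read from their size. The lower genes reached further: 1158 were lower by at least 3 log2 units and 100 by at least 5, while 35 were higher by at least 3. Many calls rest on scarce transcripts. Of the lower genes 2870 averaged under 50 CPM in the mitochondria-poor set, and of the higher genes 602 did in the mitochondria-rich set. With 5 added to each CPM instead of 1, 1827 genes were higher and 2803 lower. The median gene differed by -0.49.

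All of these are relative levels, and the split moved with the scaling. Scaled to the total of nuclear-encoded UMIs, 942 genes were higher and 5215 lower, which is 84.7% lower, and the median gene was at -0.96. With the mean CPM of single oocytes, 684 were higher and 4962 lower, 87.9% lower, with the median gene at -1.06. Scaled to ERCC RNA, 16 were higher and 6638 lower, 99.8% lower, with the median gene at -1.53. All 3969 lower genes stayed lower calls under nuclear and ERCC scaling. Higher therefore means a larger share of the captured RNA and does not by itself mean more molecules per oocyte. Of the 48 higher genes named by the rule or in the text, 43 kept their direction under ERCC scaling. The mitochondrially encoded list kept a positive median of 1.43 under it.

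The RNA captured per oocyte was compared through the same spike. The median oocyte held 211, 269, 331, 169 and 166 endogenous UMIs per ERCC UMI in libraries 39, 45, 46, 56 and 57. It held 386, 567, 156, 244, 146.1, 269 and 982 in libraries 3, 7, 8, 13, 21, 58 and 59. The sets overlapped, with geometric means of 221 and 317 and a log2 difference of -0.52 ± 0.42 (SE). An exact two-sided permutation test over the 792 arrangements of 5 and 7 libraries gave p = 0.313. With UMIs summed over each library instead of the median oocyte, the log2 difference was -0.79, and the exact two-sided permutation test gave p = 0.0101. In the median oocyte without mitochondrial rows it was -0.66 (exact permutation p = 0.202). With oocytes of at least 2000 genes and 10000 UMIs it was -0.68 (exact permutation p = 0.154). Endogenous UMIs also enter the mitochondrial share behind the split, so the test is not fully independent of that split. The spike measures capture and RNA content together, and fewer captured molecules and less RNA per cell cannot be told apart.

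The genes given as markers of the split fell on both sides of it. C86187, listed here with the Oosp and Oog families of oocyte genes, was at 5441, 6917, 5419, 6859 and 5446 CPM in libraries 39, 45, 46, 56 and 57. It was at 1588, 1242, 1026, 1006, 891, 999 and 1241 CPM in libraries 3, 7, 8, 13, 21, 58 and 59. The lowest mitochondria-rich library thus lay well above the highest mitochondria-poor one, at a log2 difference of 2.41 ± 0.14 (SE). Whether C86187 has close copies that share its reads was not tested. Trim61, a tripartite motif gene, was at 2876, 2992, 4135, 3509 and 3842 CPM against 808, 733, 735, 700, 910, 693 and 1037 CPM, in the same order of libraries. The spread within each set was small beside the gap between them, and the log2 difference was 2.11 ± 0.13.

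Oosp3, an oocyte secreted protein, was at 6097, 5584, 4323, 7066 and 9014 CPM against 748, 1067, 818, 894, 1159, 1745 and 1709 CPM. Nfya, the DNA-binding regulator of the NF-Y factor that binds CCAAT boxes, was at 581, 1069, 276, 1448 and 594 CPM against 86.4, 140.98, 53.1, 37.99, 44.9, 71.1 and 51.2 CPM. The log2 differences were 2.49 ± 0.26 for Oosp3 and 3.41 ± 0.48 for Nfya, and library 46 was the lowest of its set for both. Oosp2, a relative of Oosp3, did not follow it: its values of 401 to 1120 CPM overlapped those of 941 to 1718 CPM in the mitochondria-poor libraries, at -0.74 ± 0.29.

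Gtsf1, a piRNA pathway factor needed to silence transposons, was at 84.8, 56.8, 35.4, 76.1 and 47.9 CPM in libraries 39, 45, 46, 56 and 57. It was at 1930, 3116, 1309, 1330, 1528, 2075 and 1200 CPM in the mitochondria-poor libraries. Dppa5a, an RNA-binding protein of germ and pluripotent cells, was at 112.3, 32.3, 24.9, 109.2 and 47.2 CPM against 957, 1886, 1426, 1702, 965, 1546 and 684 CPM. Both genes were many-fold lower in each mitochondria-rich library than in the lowest library of the other set, at log2 differences of -4.86 ± 0.29 and -4.49 ± 0.48.

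**Figure D2:**
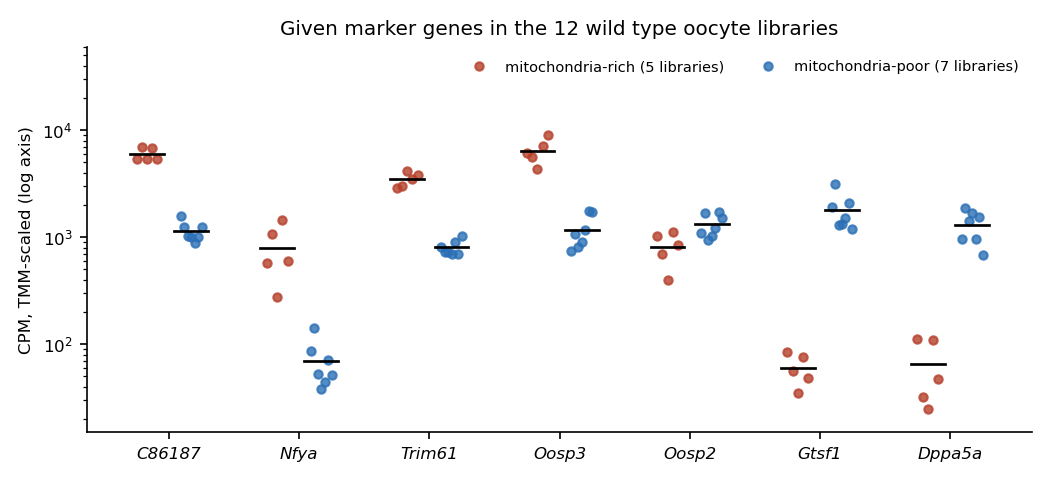
Level of the 7 given markers in each of the 12 wild type oocyte libraries; points are libraries, colored by set, bars are the means of a set, and the y axis is TMM-scaled CPM on a log scale. C86187, Nfya, Trim61 and Oosp3 are higher in the 5 mitochondria-rich libraries, Gtsf1 and Dppa5a are lower, and Oosp2 overlaps.

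Among 18 oocyte identity genes, 1 was higher and 10 were lower, with a median of -2.63 beside -0.49 for all genes. The counts of this and the later lists stand beside 16.6% higher and 31.9% lower over all genes. Nothing is read from a count near those shares. The higher one was Dazl, an RNA-binding protein of germ cells, at 606 to 724 CPM against 207 to 365 CPM; it was picked after its values were seen, and under ERCC scaling its difference reversed to -0.27. Figla, the transcription factor that switches on zona and other oocyte genes, was close to absent from the mitochondria-rich libraries, at 1.49, 0, 1.11, 0.443 and 0.327 CPM. The mitochondria-poor libraries held 68.5 to 213 CPM of it, and the log2 difference was -6.28 ± 0.32. Nobox, a homeobox regulator of oocyte genes, lay between 8.87 and 29.3 CPM against 406 to 812 CPM. Padi6, a protein of the oocyte's cytoplasmic lattices, lay between 34.2 and 48.7 CPM against 801 to 1710 CPM. These are regulators and structural proteins of the growing oocyte, and in none of them did a mitochondria-rich library come near the other set.

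Of 12 zona and growth factor genes, 6 were lower and none higher, with a median of -1.75. Zp3, the zona glycoprotein that binds sperm in the classical view, was at 156, 93.99, 161, 134.9 and 169 CPM in the mitochondria-rich libraries. It was at 2882, 3205, 5455, 5537, 4888, 4055 and 3153 CPM in the others, a log2 difference of -4.84 ± 0.21. Zp2 lay between 16.6 and 33.9 CPM against 907 to 1440 CPM, and Zp1 between 16.2 and 57.5 CPM against 542 to 1210 CPM. Fgf8, a growth factor that the oocyte sends to the cumulus cells around it, lay between 0.176 and 2.21 CPM against 56.3 to 157 CPM. The growth factors Gdf9 and Bmp15, given above, did not pass the rule.

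The Oosp and Oog families had 5 members higher and 2 lower of 11, with a median of 0.43 that became -0.25 under nuclear scaling and -1.17 under ERCC scaling. Oog3 was at 14804, 9782, 17311, 10106 and 8385 CPM against 2072 to 3326 CPM. C87499, in the same list as C86187, lay between 871 and 1203 CPM against 140 to 356 CPM. The families hold near-identical copies, so the share of reads assigned to each member is uncertain.

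Genes of the subcortical maternal complex, an assembly under the oocyte surface needed for the first cleavages, were counted with the NLRP family. Of these 17 genes, 2 were higher and 8 lower, with a median of -0.82. Khdc3 lay between 22.2 and 40.3 CPM against 610 to 1925 CPM, Ooep between 82.9 and 190 CPM against 1605 to 2621 CPM, and Tle6 between 133.8 and 238 CPM against 836 to 2138 CPM. All 3 are core members of the complex, with log2 differences of -5.33, -4.01 and -3.08. The 2 higher genes, named after their values were seen, were Zbed3 and Nlrp4a. Zbed3, also a member of the complex, lay between 6656 and 12752 CPM against 1241 to 2772 CPM, at 2.56 ± 0.23. Nlrp4a lay between 296 and 439 CPM against 112.03 to 197 CPM, at 1.41 ± 0.16, and under ERCC scaling its difference reversed to -0.19.

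The machinery that stores and removes maternal RNA had members on both sides. Of 35 such genes, 12 were higher and 7 lower, beside 16.6% and 31.9% of all genes. Their median of 0.18 became -0.47 under nuclear scaling and -1.14 under ERCC scaling. Cnot7, a deadenylase subunit of the CCR4-NOT complex that shortens poly(A) tails, was at 2210, 1827, 1885, 1873 and 1565 CPM in the mitochondria-rich libraries. The mitochondria-poor libraries held 290, 333, 195, 193, 343, 258 and 408 CPM of it, a log2 difference of 2.73 ± 0.17. Cnot6l, another deadenylase of the complex, lay between 470 and 911 CPM against 99.5 to 225 CPM. Btg4, the adaptor that brings this complex to maternal messages, lay between 4825 and 8458 CPM against 1236 to 2671 CPM. Cnot6l and Btg4 were picked after their values were seen.

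The members of this list with the largest negative differences were Zar1l, Ybx2 and Pabpc1l. Zar1l lay between 6.08 and 12.7 CPM against 219 to 477 CPM, and Ybx2, a Y-box protein that packages stored RNA in germ cells, between 5.17 and 13.2 CPM against 51.7 to 83.4 CPM. Pabpc1l, the poly(A)-binding protein of oocytes, lay between 3.25 and 10.9 CPM against 45.3 to 75.8 CPM. The log2 differences were -4.81, -3.02 and -2.89. Zar1, the relative of Zar1l that binds maternal messages, did not pass the rule: it lay between 947 and 1563 CPM against 1153 to 1989 CPM, at -0.51 ± 0.18, and was picked after its values were seen.

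Of 26 regulators of meiotic maturation, 9 were higher and 6 lower, beside 16.6% and 31.9% of all genes. Their median of 0.42 became -0.26 under nuclear scaling and -1.17 under ERCC scaling. Cdk1, the kinase that drives entry into M phase, lay between 2.40 and 9.04 CPM against 108.1 to 177 CPM. Wee1, a kinase that restrains Cdk1, lay between 0 and 1.66 CPM against 15.3 to 41.3 CPM. Fzr1, an activator of the anaphase-promoting complex that keeps oocytes arrested, lay between 0.144 and 6.08 CPM against 41.97 to 112.97 CPM. These 3 were lower by 4.61, 4.10 and 4.71 log2 units.

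Other regulators in the list were higher. Ccnb1, cyclin B1, lay between 1712 and 4294 CPM against 743 to 1436 CPM, at 1.17 ± 0.29. Wee2, the oocyte form of Wee1, lay between 577 and 842 CPM against 195 to 329 CPM, at 1.52 ± 0.14. Mad2l1, of the spindle checkpoint, lay between 1192 and 1782 CPM against 305 to 440 CPM, at 1.96 ± 0.12. These 3 were picked after their values were seen, and under ERCC scaling the differences of Ccnb1 and Wee2 reversed to -0.43 and -0.08.

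Among 13 genes of meiotic cohesin and recombination, 7 were higher and 3 lower, with a median of 1.21 that fell below 0 under ERCC scaling, at -0.32. Tex11, a meiotic crossover protein, lay between 160 and 258.5 CPM against 9.03 to 33.9 CPM. Sgo2a, which protects cohesin at centromeres, was at 157, 150, 87.3, 162 and 165 CPM against 20.8 to 48.5 CPM. Sycp2, of the synaptonemal complex, was at 236, 236, 123.8, 253 and 273 CPM against 36.1 to 77.8 CPM. Library 46 was low within its set for both Sgo2a and Sycp2.

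Of 21 spindle and cytoskeleton genes, 3 were higher and 11 lower, with a median of -1.37. Fmn2, an actin nucleator that moves the meiotic spindle, was at 1060, 1062, 263, 1136 and 797 CPM against 43.6 to 143.5 CPM. Tacc3, a spindle microtubule protein, was lower, at 17.1 to 45.2 CPM against 611 to 1085 CPM. Tubb2b, a beta tubulin, lay between 0 and 6.65 CPM against 48.6 to 165 CPM. Of 19 piRNA pathway genes, 1 was higher and 12 lower, with a median of -1.86. Besides Gtsf1, Henmt1, which methylates piRNA ends, lay between 1.01 and 20.3 CPM against 93.4 to 126.5 CPM, and Mael lay between 3.16 and 8.72 CPM against 45.4 to 103.4 CPM.

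Genes of DNA methylation had 5 higher and 4 lower members of 15, beside 16.6% and 31.9% of all genes, with a median of -0.19. Hells, a chromatin remodeler needed for DNA methylation, lay between 664 and 1419 CPM against 169 to 296 CPM. Tet3, the enzyme that oxidizes methylcytosine after fertilization, lay between 739 and 953 CPM against 175 to 371.5 CPM. Zfp57, which protects imprints, lay between 21.8 and 66.3 CPM against 147.7 to 528 CPM.

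The nuclear-encoded part of the respiratory chain went opposite to the mitochondrially encoded part. Of 72 nuclear respiratory chain genes none was higher and 57 were lower, with a median of -2.92. Ndufs7 of complex I lay between 1.15 and 4.255 CPM against 78.02 to 158 CPM, Sdhd of complex II between 0 and 3.25 CPM against 101.8 to 217 CPM, and Atp5o of the ATP synthase between 6.90 and 14.2 CPM against 407 to 629 CPM. Polrmt, the mitochondrial RNA polymerase, lay between 0 and 1.53 CPM against 17.5 to 45.7 CPM, and Twnk, the mitochondrial DNA helicase, between 0 and 2.84 CPM against 23.01 to 55.4 CPM. In the list of mitochondrial upkeep genes to which both belong, 4 of 28 were higher and 14 lower, with a median of -1.57.

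Cytoplasmic ribosomal protein genes were lower nearly throughout: 53 of 62 were lower and 1 was higher, with a median of -3.17. Rpl19 lay between 2.76 and 12.4 CPM against 148.6 to 337 CPM, and Rps7 between 7.04 and 26.6 CPM against 381 to 573 CPM. Ribosomal protein genes have many pseudogene copies that can take reads. Of 21 translation factors, 5 were higher and 4 lower, beside 16.6% and 31.9% of all genes. Their median of 0.41 became -0.27 under nuclear scaling and -1.19 under ERCC scaling. Eif2s2, a subunit of the initiation factor that delivers the first tRNA, was at 10379, 10566, 4755, 16657 and 13271 CPM against 1096 to 2038 CPM. Eef1a1, the main elongation factor, lay between 22.1 and 49.9 CPM against 223 to 433.5 CPM, and Eef2 between 7.74 and 19.2 CPM against 53.7 to 83.98 CPM.

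**Figure D3:**
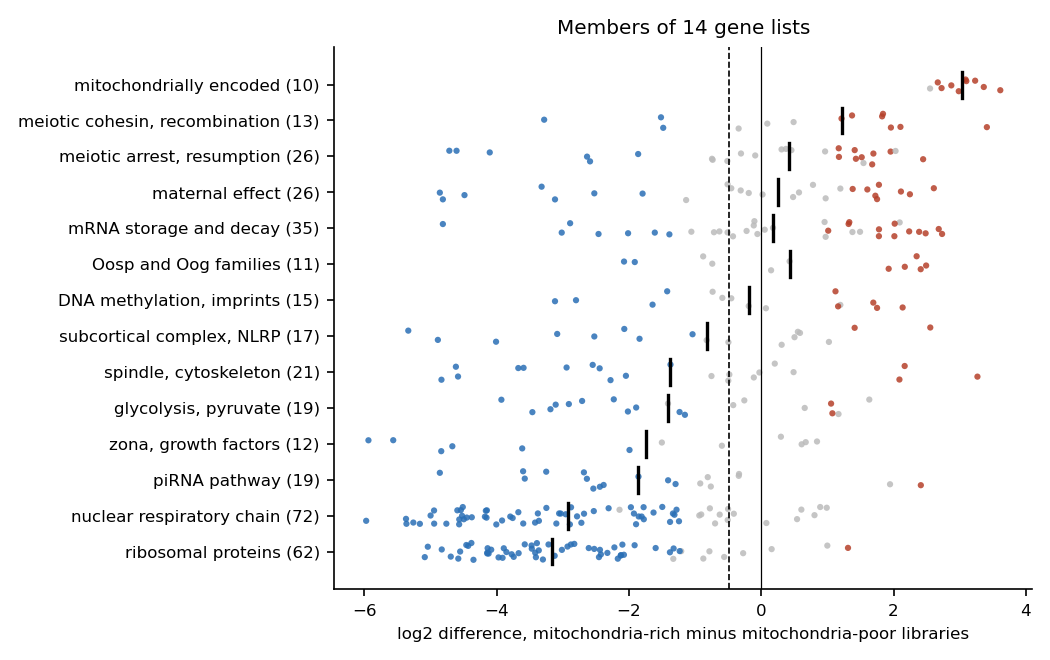
Log2 difference of each tested member of 14 gene lists, mitochondria-rich minus mitochondria-poor libraries; points are genes (red called higher, blue called lower, gray neither), thick bars are list medians, the dashed line is the median of all genes and the number of genes stands in brackets. The mitochondrially encoded list lies above 0 with a median of 3.04, while the ribosomal protein and nuclear respiratory chain lists have medians of -3.17 and -2.92.

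The genes with the largest differences outside these lists included further metabolic and signaling genes. Usp53 lay between 147.02 and 300.0 CPM against 7.22 to 27.7 CPM, and Csnk2a2, a catalytic subunit of casein kinase 2, between 122.2 and 373 CPM against 12.96 to 30.6 CPM. Ddit4, an inhibitor of mTORC1 induced by stress, lay between 120 and 550 CPM against 12.1 to 51.4 CPM, and Slc6a15, an amino acid transporter, between 96.6 and 194 CPM against 4.31 to 30.5 CPM. Among the lower genes, Ckb, the brain-type creatine kinase, lay between 0.575 and 3.87 CPM against 130 to 499 CPM, at -6.54 ± 0.41. Timm17a, of the inner membrane protein import complex, lay between 8.84 and 18.4 CPM against 678 to 1329 CPM, and Fdft1, squalene synthase of the cholesterol pathway, between 0.351 and 4.42 CPM against 147.1 to 314 CPM. Cpsf4l lay between 1.03 and 8.29 CPM against 364 to 716 CPM.

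Spp1, which encodes osteopontin, had the largest positive difference, 5.59 ± 0.68, but its level was uneven: library 39 held 306 CPM and the other 4 mitochondria-rich libraries held 20.4 to 87.7 CPM, against 0.0626 to 1.61 CPM in the mitochondria-poor set. Library 39 also stood out for Ptx3, a matrix protein made by cumulus cells, at 196 CPM against 1.11 to 21.4 CPM in the rest of its set. It held 59.7 CPM of Fst, the activin inhibitor follistatin, against 0 to 9.06 CPM.

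Markers of other ovarian cells were summed to see what else the picked cells carried. Of 20 granulosa and cumulus genes in the table, 14 were tested, 3 were higher and 1 was lower, with a median of 0.57, which was 0.00 under nuclear scaling, -0.65 under ERCC scaling and -0.98 with the mean CPM of oocytes. The summed level of the list was 734 to 1146 CPM in the mitochondria-rich and 460 to 506 CPM in the mitochondria-poor libraries, while the defining genes Amh, Fshr, Foxl2 and Wt1 did not pass the low-count filter. Cyp19a1, the aromatase of granulosa cells, lay between 16.7 and 22.7 CPM against 2.78 to 10.9 CPM, and Esr2 between 18.03 and 33.0 CPM against 74.04 to 113.3 CPM. Theca and stroma genes summed to 1.66 to 29.5 CPM against 24.6 to 110.7 CPM, with Gli1 and Insl3 at 0 in the mitochondria-rich set. Leukocyte and red cell genes summed to 0.591 to 6.63 CPM against 14.7 to 56.02 CPM, and the 4 hemoglobin genes were at 0 in both. The part of these cells in the differences above was not tested. Long RNAs retained in nuclei, included as a sign of RNA quality, summed to 477 to 1385 CPM against 452 to 1323 CPM, and none of 9 was called.

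The messages on the higher and lower sides differed in their reference sequence. Genes were matched by symbol to GENCODE M21 transcripts on GRCm38, which gave a 3′ untranslated region (UTR) for 1948 of the 2058 higher, 3711 of the 3969 lower and 11589 of all 12435 genes. The cytoplasmic polyadenylation motif was searched as TTTTAT or TTTTAAT on the sense strand in the last 100 bases of the 3′ UTR. It was found in 33.6% of the higher genes, 10.1% of the lower genes and 19.3% of all tested genes. Nfya, Trim61, Oosp3 and Cnot7, all higher, carry it in the windows below, shown because they are markers of the split or a deadenylase, with the motif in capitals:
Nfya: attgcttttcttTTTTAATaaatttataaa
Trim61: cagctattttgtTTTTAATctgcgtcagga
Oosp3: ataaataaaacaTTTTATtgta
Cnot7: tcttaaggtacaTTTTATatcaataaaaa

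The windows lie in 3′ UTR exons at chr17:48386902-48386931 on the minus strand for Nfya, chr8:65013057-65013086 on the minus strand for Trim61, chr19:11711837-11711858 on the plus strand for Oosp3, and chr8:40493039-40493067 on the minus strand for Cnot7. A match is a description of the reference and not a site shown to act, and a 3′ end used in oocytes may differ from the annotated one. The motif was also found on the lower side, in Henmt1 at chr3:108960630-108960658 on the plus strand, with its window here for contrast:
Henmt1: ttaaaattagatTTTTATtttttaaaaaa

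No motif was found in these windows of Gtsf1, Dppa5a or Oosp2, and C86187 was not matched. Of the genes the naming rule gave that were matched to a 3′ UTR, 13 of 29 higher genes and 4 of 80 lower genes carried the motif. Read the other way, of 2232 genes with the motif 29.4% were higher and 16.8% lower, and of 9357 without it 13.8% were higher and 35.6% lower. The 3′ UTRs also differed in length and base composition, with medians of 1286 bases and 39.4% GC for higher genes against 595 bases and 47.3% GC for lower genes.

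The difference in motif share was therefore read within bands of UTR length and, separately, within bands of UTR GC. Length and GC were not banded together, and the base composition of the last 100 bases alone was not tested. In the shortest UTR band the motif was in 39.5% of the higher and 6.47% of the lower genes, and in UTRs over 2000 bases in 30.6% and 14.3%. In UTRs of up to 36% GC the shares were 35.4% and 17.7%, and in those over 52% GC they were 26.7% and 5.06%. In each of the 5 length bands and 6 GC bands the higher genes carried the motif more often. The standard polyadenylation signal AATAAA was in the same 100 bases of 72.2% of the higher and 57.2% of the lower genes. Coding length differed too, with medians of 1637 bases for higher and 1164 bases for lower genes. Of genes with a coding length of up to 500 bases 46.9% were lower, and in the band of the longest coding sequences 14.99%.

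**Figure D4:**
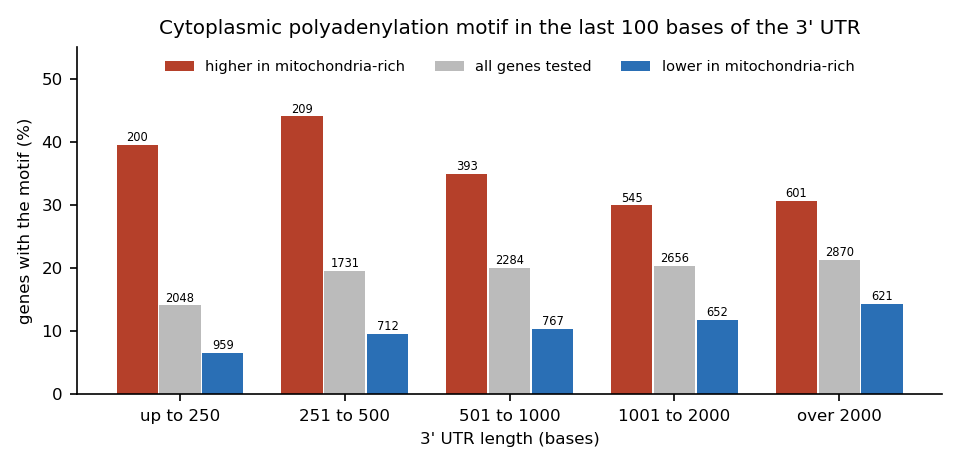
Share of genes with TTTTAT or TTTTAAT in the last 100 bases of the 3′ UTR, by UTR length in bases; bars are genes higher in the mitochondria-rich libraries, all tested genes and genes lower in them, with the number of genes above each bar. In every length band the bar of the higher genes exceeds that of the lower genes, from 39.5% against 6.47% in the shortest band to 30.6% against 14.3% in the longest.

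To see whether single oocytes mixed the 2 patterns, each oocyte was scored by the log2 ratio of its UMIs in the 2058 higher genes to those in the 3969 lower genes. The score uses the genes chosen from these libraries, so the separation is a description. The library medians were 4.41 to 4.89 in the mitochondria-rich and -0.26 to 0.02 in the mitochondria-poor set. A cut midway, at 2.22, put 341 of 342 mitochondria-rich oocytes and 7 of 461 mitochondria-poor oocytes above it, and 9 of the 803 lay within 0.5 of the cut. The 7 came from libraries 3, 7, 21 and 58, with a median of 13695 UMIs and a mitochondrial share of 9.26%, against 75708 UMIs and 3.74% in the other mitochondria-poor oocytes. The pattern was thus one of whole libraries, although the labels set the libraries apart by number alone.

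**Figure D5:**
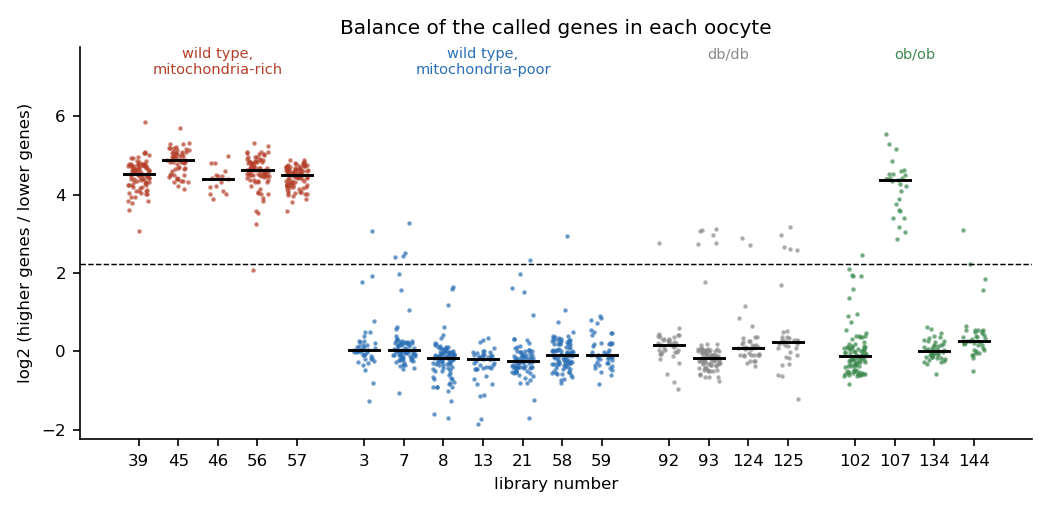
Per-oocyte score, the log2 ratio of UMIs in genes higher to UMIs in genes lower in the mitochondria-rich libraries; points are oocytes, bars are library medians, the x axis is the library number and the dashed line is the cut of 2.22. Oocytes of the 5 mitochondria-rich libraries and of ob/ob library b107 lie above the line, and those of the other libraries lie below it apart from 7 wild type and 17 mutant oocytes above and 1 oocyte of library 56 below.

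The 8 mutant oocyte libraries, 4 from db/db and 4 from ob/ob ovaries of strain C57BL/6, took no part in the split, though they were counted and scaled with the same genes. Library b107, so numbered in the labels and from ob/ob ovaries, had a mitochondrial share of 17.6% and correlated at 0.915 to 0.948 with the mitochondria-rich and 0.694 to 0.783 with the mitochondria-poor wild type libraries. The other 7 correlated at 0.908 to 0.972 with the mitochondria-poor set. All 27 oocytes of library b107 lay above the cut of the score, against 17 of 371 in the other mutant libraries. Scaled together with the other oocyte libraries, library b107 held 3730 CPM of C86187, 262 of Nfya, 3662 of Oosp3, 23.3 of Gtsf1 and 57.6 of Dppa5a, while the other 3 ob/ob libraries held 612 to 991, 63.9 to 94.1, 1150 to 1818, 2049 to 2585 and 529 to 831 CPM. It lay outside their range in the wild type direction for each of these genes.

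Of the 2058 higher genes, 69.3% were higher in library b107 than in each of the other 3 ob/ob libraries by at least 1 log2 unit, beside 20.4% of all tested genes, and of the 3969 lower genes 83.02% were lower by as much, beside 38.4%. Library b107 is 1 library, so the comparison carries no replicate check. Trim61 was lower in each of the 4 db/db libraries, at 76.4 to 180 CPM, than in the 3 other ob/ob libraries, at 782 to 827 CPM, and than in the 7 mitochondria-poor wild type libraries. The db/db and ob/ob mice share a strain, while against wild type the strain and the genotype cannot be told apart.

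The library numbers 39 to 57, between which all 5 mitochondria-rich libraries fall, also hold 14 wild type somatic libraries of the same strain, which were not used to make the split. Their mitochondrial share averaged 4.27% ± 1.56 (SD, n = 14) against 3.62% ± 0.441 (SD, n = 17) in the wild type somatic libraries outside these numbers. The difference of 0.645 ± 0.429 (SE) percentage points gave p = 0.117 in a two-sided permutation test with 100000 resamples. Without somatic libraries 41, 51 and 52, which stood apart in size or spike share and were left out after the data were seen, the difference was 0.193 with p = 0.529.

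edgeR's quasi-likelihood test across 10915 genes called 740, or 6.78%, between these somatic groups, 576 higher and 164 lower inside the numbers at an adjusted p under 0.05. The cell makeup of the somatic libraries differs and was not adjusted for, so the test does not compare like cells. Of the genes higher in mitochondria-rich oocytes 1709 were tested, of which 9.07% rose and 0.527% fell, with a median log2 difference of 0.23. Of the genes lower in them 3114 were tested, of which 4.30% rose and 1.54% fell, with a median of 0.07, beside 5.28% and 1.503% of all genes and a median of 0.09. Of 10 mitochondrially encoded genes mt-Nd2 and mt-Nd4 rose, by 0.67 and 0.64 log2 units (edgeR adjusted p = 0.00261 and 0.00244). Of 61 ribosomal protein genes none rose and 2 fell, and of 72 nuclear respiratory chain genes 1 rose and none fell. Without libraries 41, 51 and 52, the genes higher in mitochondria-rich oocytes rose in 7.28% and fell in 0.932% of cases, with a median of 0.16. The genes lower in them rose in 4.72% and fell in 1.75%, with a median of 0.07, beside 4.60% and 2.01% of all genes and a median of 0.05. In that fit 5 nuclear respiratory chain genes rose and 1 ribosomal protein gene fell. The difference between oocytes and somatic cells in these groups was not tested.

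Some oocyte transcripts rose in the somatic libraries inside the numbers, in part through single libraries. C86187 had a median of 24.8 CPM inside and 1.505 CPM outside and rose by 3.98 log2 units (edgeR adjusted p = 7.28e-05). Gtsf1 rose by 5.06 log2 units (edgeR adjusted p = 0.000569), but libraries 50 and 51 held 462 and 208 CPM of it, and the medians were 5.38 CPM inside and 1.63 CPM outside. Dppa5a rose by 3.78 (edgeR adjusted p = 0.0071), while its median was 2.06 CPM inside and 2.53 CPM outside. Without libraries 41, 51 and 52, C86187, Gtsf1 and Dppa5a were still called. With library 50 left out as well, also after the data were seen, the log2 difference was 2.95 for C86187 and 2.45 for Gtsf1 (edgeR adjusted p = 0.00273 and 0.0327), and that of Dppa5a was 1.49 with its call lost (edgeR adjusted p = 0.345).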

How the data were processed

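Single oocytes and somatic cells of mouse ovaries were sequenced as polyadenylated RNA, and the authors deposited 1 table of UMI counts per gene and cell, whole numbers with no normalization. The build is mm9, per the submitters' processing notes, and for the aligner and counter the entry is: not given in the sources used here. Left out were 3254 cell columns of 38 libraries outside the labels used. Cells were assigned to libraries by the number in their column names, and libraries to groups by the labels. From 4045 cells of 51 libraries, those with at least 1000 genes and 3000 UMIs, without ERCC and RGC rows, were kept. No doublet caller was run, since cells were picked by hand. The 37 mitochondrial rows were named from GENCODE M21.

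The members and gene lists were chosen with earlier results of these data known. Counts were summed per library, filtered with filterByExpr, scaled by TMM (edgeR 4.0.16, R 4.3.3) and compared as log2(CPM + 1). Captured RNA was compared by an exact permutation test over libraries and the somatic mitochondrial share by a permutation test (scipy 1.17.1). Somatic genes were tested with edgeR's quasi-likelihood test and Benjamini-Hochberg adjustment, with DESeq2 1.42.0 as an alternative; the script was tested on simulated data. The p-values rest on differences among libraries, part of which may be technical. Precision rests on counting 2070988 or more UMIs per oocyte library.

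Named genes are the 7 given markers, the 12 largest differences in each direction among called genes averaging 50 CPM or more in the higher set (predicted and ribosomal genes counted only), up to 4 members of each of 32 lists with the largest absolute difference, and the mitochondrial rows, not all printed. Alternatives were other scalings, filters, pseudocounts and cell summaries, libraries 39 to 59 alone, and leaving out each library.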

Additional observations from a re-analysis of the deposited data

Results flagged for a closer look

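Outliers were sought in 186 groups of values, 1 set or genotype of libraries at a time. Most were levels of named genes, and the rest were library measures such as total UMIs and mitochondrial share. In 17 groups the highest or lowest library lay far from the others by Dixon's test at the 95% level, and all 17 were gene levels. Chance marks about 1 in 20 groups when values are normally distributed and groups are independent. Levels in CPM of genes from the same libraries need not be either, so the number due to chance is not known. Library 39 was high in the mitochondria-rich set for Spp1 (305.7 CPM, the others at 20.4 to 87.7), Ptx3 (196.4, others 1.11 to 21.4) and Fst (59.7, others 0 to 9.06).

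Library 46, the one with the fewest oocytes, was low for Sgo2a (87.3 CPM, others 150 to 165) and Sycp2 (123.8, others 236 to 273), and high for Btg4 (8458, others 4825 to 5802) and Zar1 (1563, others 947 to 1020.2).

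In the mitochondria-poor set, library 7 was high for Spp1 (1.61 CPM, others 0.0626 to 0.496), Csnk2a2 (30.6, others 12.96 to 18.6), Tubb2b (165.3, others 48.6 to 96.96), mt-Nd2 (6973, others 1398 to 3354) and mt-Rnr1 (9146, others 2689 to 5453). Library 59 was high for Cpsf4l (715.9 CPM, others 364 to 446), Zar1l (477.1, others 219 to 293), Pabpc1l (75.8, others 45.3 to 55.99) and Btg4 (2671, others 1236 to 1779). Library 3 was the only mitochondria-poor library with any Ptx3, at 0.595 CPM.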

How the results depend on the processing

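The numbers of called genes moved most with the scaling: higher genes numbered 942 with the nuclear-encoded total, 16 with ERCC scaling and 684 with the mean CPM of oocytes, against 2058, and lower genes numbered 6638 with ERCC scaling, against 3969. For 83 genes of the text, values were followed through each alternative. Among the called ones, the differences of Ccnb1, Wee2, Dazl and Nlrp4a reversed under ERCC scaling to -0.43, -0.084, -0.27 and -0.19. Reversals among called genes outside these 83 are not listed. Of genes that were not called, Gdf9 was at -0.99 and Bmp15 at -0.93 with ERCC scaling and at -0.07 and -0.0094 with the nuclear total, and with the mean CPM of oocytes Bmp15 was at -0.12 and Fst at -0.0093. Leaving out each library gave 2056 to 2518 higher and 3762 to 4189 lower genes, a difference in mitochondrial share of 7.69 to 10.5 percentage points, and a log2 difference in UMIs per ERCC UMI of -0.70 to -0.25. With summed UMIs that last difference was -0.79 (exact permutation p = 0.0101), and without mitochondrial rows it was -0.66 (exact permutation p = 0.202). In the somatic test, 2394 genes were higher and 1247 lower without the low-count filter, and 363 were lower with DESeq2's Wald test, against 576 and 164; 837 were higher and 185 lower with DESeq2 size factors in the edgeR fit. Without somatic libraries 41, 50, 51 and 52, left out after the data were seen, 472 were higher and 249 lower. Of 1743 values of single genes under these alternatives, 1493 moved by less than 1 SD between libraries, 246 by more, and 4 values of called genes reversed. Leaving out 1 library gave 996 of these values, and all 996 moved by less than 1 SD. Most genes moved with the scaling: of 83, only 3 stayed within 1 SD under ERCC scaling. With the nuclear-encoded total 26 of 83 did, and with the mean CPM of oocytes 26. No paired analysis was possible because the labels give the sets no shared replicate numbers. The causes of these shifts were not tested. Depth limits the scarce genes: Figla rests on 25 UMIs over the mitochondria-rich libraries.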

Other observations

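Values of 4 further groups are given beside 16.6% higher, 31.9% lower and a median of -0.49 over all genes. The counts of the oxidative defence, heat shock and DNA damage lists lie near or below those shares, and nothing is read from them. Of 19 genes of glycolysis and pyruvate use, 2 were higher and 11 lower in the mitochondria-rich libraries, with a median log2 difference of -1.41; Pkm, pyruvate kinase, lay between 9.05 and 18.2 CPM against 128.1 to 337 CPM. Of 26 oxidative defence genes, 3 were higher and 10 lower, with a median of -0.59; Gpx4, which removes lipid peroxides, lay between 0.887 and 3.87 CPM against 12.6 to 86.6 CPM, and Gsta4, a glutathione transferase, between 0.575 and 9.38 CPM against 91.97 to 296 CPM. Of 18 immediate early and heat shock genes, 1 was higher and 3 lower, with a median of -0.87; Hsph1, a heat shock protein, lay between 2.44 and 10.45 CPM against 133.8 to 234 CPM. Of 24 DNA damage and apoptosis genes, 5 were higher and 3 lower, with a median of 0.19 that became -0.28 under nuclear scaling; Apaf1, the core of the apoptosome, lay between 87.9 and 138.2 CPM against 7.39 to 22.5 CPM.

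In the oocyte libraries the ratio of Gtsf1 UMIs to C86187 UMIs was 0.00653 to 0.0156 in the mitochondria-rich and 0.967 to 2.51 in the mitochondria-poor set. Somatic libraries carried low levels of both transcripts in differing ratios. The ratio was 0.0280 in somatic library 41, 0.0213 in library 42 and 0.0376 in library 44, from 3, 3 and 5 Gtsf1 UMIs. It was 6.93 in library 50 and 1.42 in library 51, where Zp3 reached 1247 and 1098 CPM. The median cell of libraries 51 and 52 held 504 and 283 endogenous UMIs per ERCC UMI, against 0.353 to 4.26 in the other wild type somatic libraries.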
